A study of Homo sapiens with 5 samples.

Results

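The genes described here encode the machinery that copies chromosomal DNA, 47 of the 28278 gene symbols in a count table of HEK293T RNA. They were chosen by symbol from a list of origin licensing, helicase, polymerase, clamp and nucleotide supply genes, and all 47 were in the table and passed the filter on low counts, among 15271 genes tested. Poly(A) RNA of HEK293T cells was sequenced in 2 libraries given ascorbic acid (vitamin C) and 3 control libraries, whose genotype is labelled WT; for the treated pair that label holds the treatment. Cells were seeded for 24 h. The labels give ascorbic acid for 24 h in a DNA methylation test or 36 h in an RNA methylation test, with new medium every 6 h, do not say which time applied here, and give no dose. HEK293T is an established line of human embryonic kidney cells that carries adenovirus E1A and SV40 large T antigen, viral proteins that bind the retinoblastoma protein family and release E2F transcription factors. Separate cultures are not mentioned in the labels, and each p-value then rests on spread between libraries that may be technical only.

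Replication starts when the origin recognition complex, with CDC6 and CDT1, loads the MCM helicase onto DNA in G1 phase. Kinases and loading factors then add CDC45 and GINS to it at the start of S phase, and polymerases, the PCNA clamp and its loader copy both strands behind the helicase. Many of these genes are transcribed in a burst before S phase under E2F control, and their proteins are abundant in dividing cells. Ascorbic acid reduces iron, and some replication proteins hold iron, among them ribonucleotide reductase and several polymerase and primase subunits.

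The libraries held 48015766 and 41739602 counts with ascorbic acid and 57212071, 38229722 and 35106664 in controls. Even numbers made up 71.3 to 75.9% of the small counts (1 to 10) per library, so a fragment may have been counted more than once. Of 8 HEK293 line markers, 6 were tested, of which 1 was higher with ascorbic acid and 0 were lower. The higher one was NEFM, a neurofilament gene (0.75 on the log2 scale). LIN28B, an RNA-binding protein gene, had 130.3 and 142.9 CPM (the count relative to the TMM-scaled library total) with ascorbic acid. In controls LIN28B had 144.1, 149.0 and 143.8 CPM, and it was not called (-0.09). NEFL (-0.07), INA (0.02) and TUBB3 (0.33) were not called either. CRABP1 was at 0 and SALL4 had 2 to 10 counts, and neither was tested. The list summed to 184.3 to 193 CPM with ascorbic acid and 182.7 to 188.4 CPM in controls. Of 10 kidney proximal tubule markers, 6 were tested, of which 1 was lower with ascorbic acid, the endocytic receptor gene LRP2 (-0.45), and 1 was higher, the transporter gene SLC13A3 (0.99). The list summed to 29.8 to 30.3 CPM with ascorbic acid and 34.3 to 36.7 CPM in controls, and the transporter genes SLC34A1, SLC22A6 and SLC22A8 had 0 counts in every library. PAX2, a kidney progenitor gene, was below 1 CPM. On a list of 10 fibroblast markers, 2 of 4 tested genes were higher with ascorbic acid, COL3A1 (1.28 on the log2 scale) and COL1A1 (0.67). The list summed to 20.4 to 21.5 CPM with ascorbic acid and 11 to 11.4 CPM in controls, with FAP at 0 throughout and COL1A2, DCN and THY1 at 0 to 2 counts. Of 9 haematopoietic markers, 1 of 5 tested was higher, LCP1 (0.17). It was not called without ascorbic acid 1, control 2 or control 3 (0.10, 0.17 and 0.15), or with DESeq2 (0.16). The list summed to 84.5 to 92.2 CPM with ascorbic acid and 76.3 to 80.6 CPM in controls. Most of this was LCP1 alone, at 79.1 to 87.1 CPM and 71.7 to 76.5 CPM, and CD3E and HBB were at 0. Of 9 keratinocyte and other epithelial markers, 3 of 4 tested were higher, EPCAM, KRT17 and SFN, all near or below 1 CPM. Each was not called without at least ascorbic acid 2. With limma-voom 2 were called and with DESeq2 0, where EPCAM and KRT17 had no adjusted p. The list summed to 21.1 to 25.9 CPM with ascorbic acid and 20.6 to 25.2 CPM in controls. Most of this was KRT10, not called (0.00), at 18.9 to 24.3 CPM and 19.9 to 24.5 CPM. KRT5, KRT1 and DSG3 were at 0. At an edgeR adjusted p under 0.05, 8.53% of all tested genes were called higher and 5.76% lower. Below 10 CPM, where most of the tested markers lay, 10.9% of all tested genes were higher and 0.843% lower. The median there was 0.14 on the log2 scale. The part of these transcripts in the results below was not tested.

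With ascorbic acid 16 of the 47 replication genes were lower and 0 were higher at an edgeR adjusted p under 0.05. Among all tested genes 5.76% were called lower and 8.53% higher, 14.3% in all. At an unadjusted p under 0.05, 26 members were lower and 1 was higher, against 12.7% and 15.3% of all tested genes. DESeq2 called 18 members lower, against 6.43% of all genes it tested, and limma-voom 17, against 6.05%, with 0 members higher in each. The changes were small. The median log2 fold change of the 47 was -0.12, beside 0.00 over all tested genes, and the values ran from -0.26 for RPA1 to 0.15 for CDC7. In 42 of 47 members the log2 fold change was below 0, as it was in 49.2% of tested genes. Both ascorbic acid libraries lay below all 3 controls in 32 members, against 20.4% of tested genes, and above all 3 in 0 members, against 22.6% (43.1% in either direction). In bulk RNA, fewer cells in S phase and less of these transcripts per cell cannot be told apart.

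**Figure D1:**
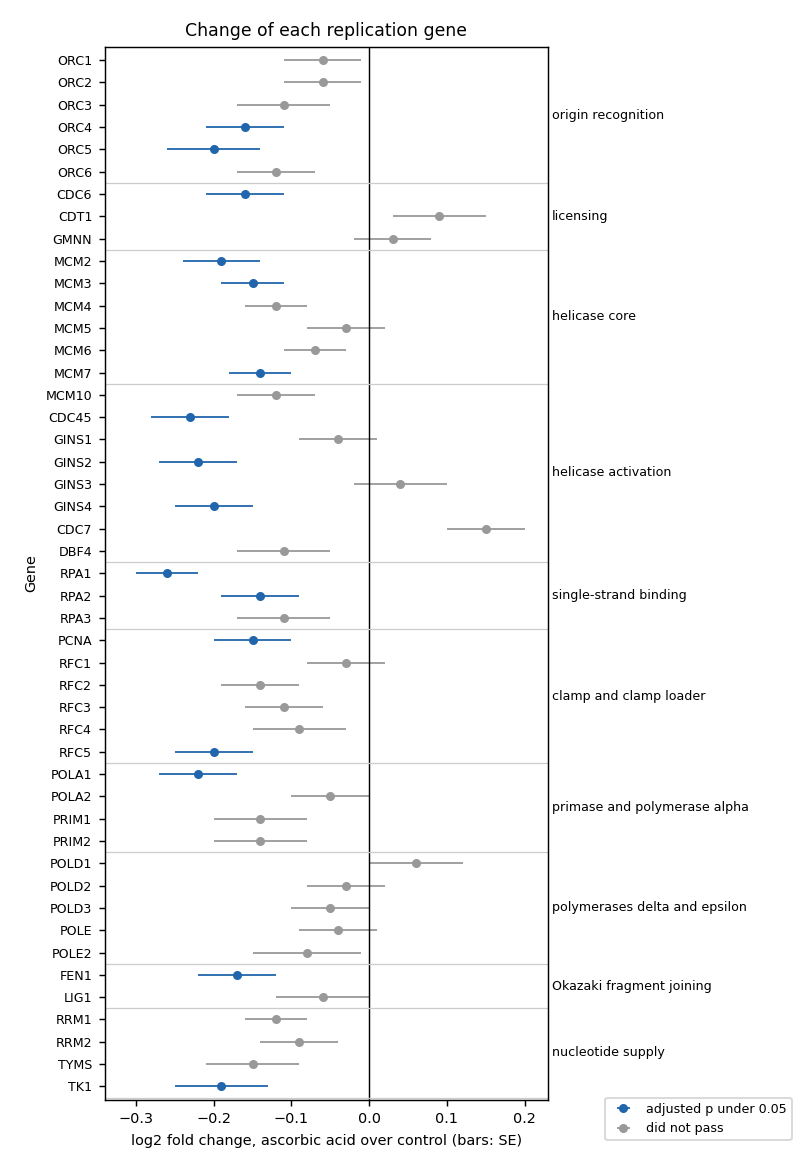
log2 fold change (ascorbic acid over control, horizontal axis) of each of the 47 replication genes, grouped by role, with bars for the standard error. The 16 genes in blue passed an edgeR adjusted p of 0.05, and all 16 lie left of 0, from -0.26 for RPA1 to -0.14 for RPA2 and MCM7.

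Scaled by library totals alone, 7 members were lower and 1 higher, and all tested genes split into 389 lower and 1712 higher, against 879 lower and 1303 higher with TMM scaling. Log2 fold changes were then below 0 in 37 members. The count of lower members was 8 without ascorbic acid 2, 8 without control 1 and 10 without control 2. Against a minimum fold of 1.2 it was 0. Of the 16 calls, 4 held when each library was left out in turn, those of RPA1, CDC45, GINS2 and RFC5, and these also held in all 18 alternatives other than the minimum fold. Library totals ended the calls of ORC4, ORC5, CDC6, MCM3, MCM7, RPA2, PCNA, FEN1 and TK1, and cyclic loess scaling ended those same calls except that of ORC5, and that of MCM2. A filter of 5 CPM in 2 libraries ended those of ORC4, CDC6, MCM3, MCM7, RPA2, PCNA and TK1, and upper-quartile factors those of ORC4, MCM3, MCM7, RPA2 and PCNA. ORC4 was also lost with GC and length trends removed and with counts thinned to the shallowest library, and RPA2 without the robust prior.

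Read by library, the treated pair stood apart in the members as a whole. Summed over the 47 genes, the level was 7718 and 7533 CPM with ascorbic acid, and 8313, 8151 and 8242 CPM in controls, so that the treated libraries were lower than each control. Ascorbic acid 2 was the lowest of the 5 libraries in 26 members and ascorbic acid 1 in 14. Control 1, the deepest library, was the highest in 21 members. The median member stood -0.10 and -0.13 from the control mean on the log2 scale in ascorbic acid 1 and 2, and 0.01, -0.01 and -0.01 in controls 1 to 3. The coefficient of variation among controls had a median of 2.86% over the members and was at most 9.24%.

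**Figure D2:**
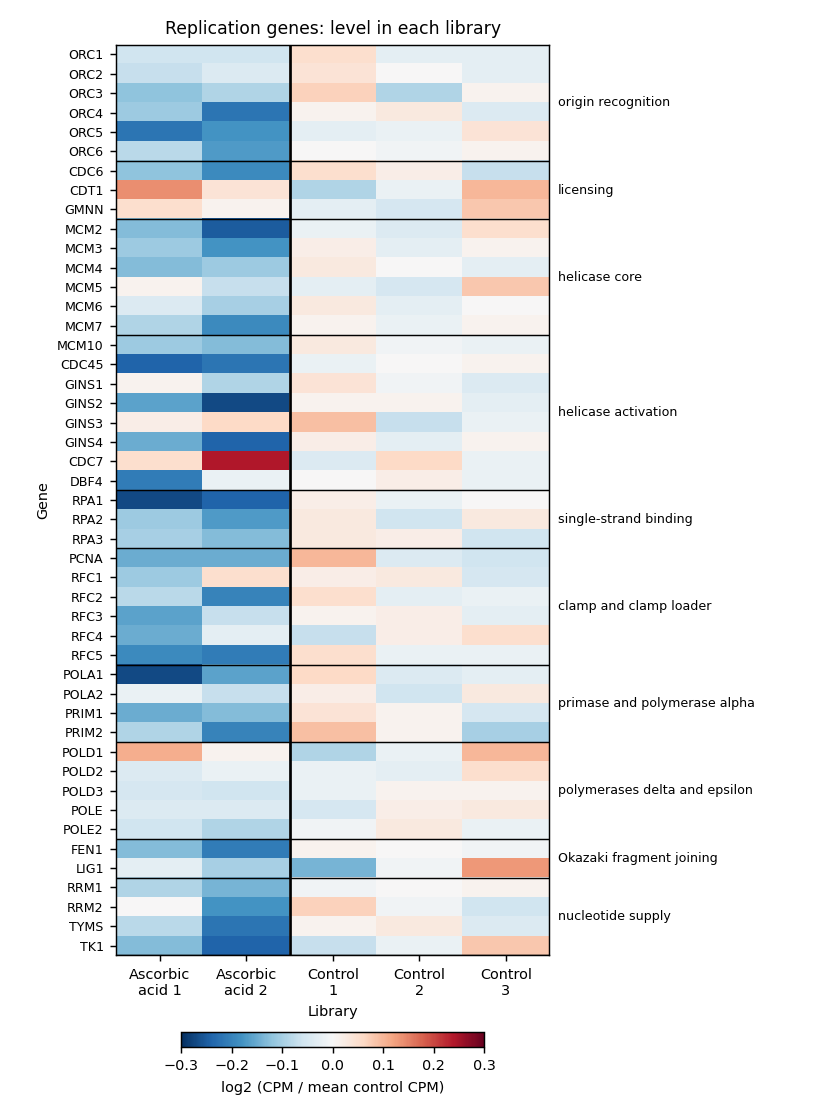
Level of each replication gene (rows, grouped by role) in each library (columns) as log2 of CPM over the mean control CPM, from blue (lower) to red (higher). The 2 ascorbic acid columns are mostly blue, in 39 and 41 of 47 genes, while CDC7 in ascorbic acid 2 is the reddest cell.

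The fold change depended on expression level, and 0 of the 47 members were below 10 CPM, where 5933 tested genes lay with a median of 0.14. In the range from 50 to 200 CPM, 11 of 34 members were lower (32.4%), against 10.6% of all 3794 tested genes there, and the median log2 fold change was -0.11 for members and -0.04 for all. At 200 CPM or more, 5 of 11 members were lower (45.5%), against 20.5% of 913 genes, with medians of -0.12 and -0.07. The 2 members from 10 to 50 CPM, PRIM2 and POLE2, did not pass. A cyclic loess fit, which takes out the trend over expression and tests log CPM with limma, left 7 members lower and 1 higher, with a median of -0.08 and values below 0 in 36 members. In that fit 3.35% of all tested genes were lower.

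**Figure D3:**
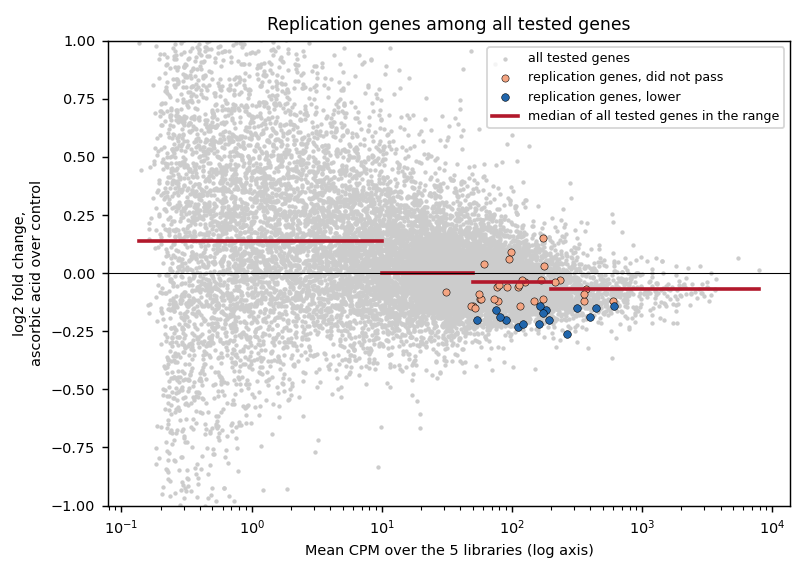
log2 fold change (ascorbic acid over control) against mean CPM (log axis) for all 15271 tested genes in grey, with the 47 replication genes in blue (called lower) or orange (not called). Red bars give the median of all tested genes in 4 ranges of CPM, 0.14, 0.00, -0.04 and -0.07 from low to high; 335 genes beyond 1 in either direction are outside the plot.

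Since many replication genes answer to E2F, promoters were read for E2F words, of which TTTCCCGC, TTTCGCGC, TTTGCCGC and TTTGGCGC were searched on both strands. RefSeq promoter windows of 300 bases (250 before the start site and 50 from it on, GRCh38.p14) matched 41 of the 47 members by symbol, all but MCM4, MCM5, GINS4, RPA2, RPA3 and POLD3. An E2F word was present in 18 of 41 members (43.9%), against 5.34% of 11516 tested genes and 3.31% of all 35116 promoters. Among called members it was present in 7 of 14 and among the others in 11 of 27 (40.7%). The word CCAAT, read by NF-Y, was present in 53.7% of members and 36.8% of tested genes. The promoters of the 4 called members with the smallest p that hold an E2F word are shown from 200 bases before the start site to 20 from it on, on the gene's strand, with the E2F words in capitals. These are POLA1 (chrX:24693718-24693937, plus strand), GINS2 (chr16:85688935-85689154, minus strand), MCM2 (chr3:127598211-127598430, plus strand) and MCM3 (chr6:52284723-52284942, minus strand).
POLA1: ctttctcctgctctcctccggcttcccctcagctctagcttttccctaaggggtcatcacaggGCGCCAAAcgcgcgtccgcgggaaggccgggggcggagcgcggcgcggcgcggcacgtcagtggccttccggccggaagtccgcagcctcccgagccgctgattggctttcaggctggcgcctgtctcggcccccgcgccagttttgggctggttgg
GINS2: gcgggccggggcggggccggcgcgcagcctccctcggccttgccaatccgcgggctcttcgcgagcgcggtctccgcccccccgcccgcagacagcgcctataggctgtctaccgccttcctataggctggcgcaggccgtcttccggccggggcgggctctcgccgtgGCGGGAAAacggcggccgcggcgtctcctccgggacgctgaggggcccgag
MCM2: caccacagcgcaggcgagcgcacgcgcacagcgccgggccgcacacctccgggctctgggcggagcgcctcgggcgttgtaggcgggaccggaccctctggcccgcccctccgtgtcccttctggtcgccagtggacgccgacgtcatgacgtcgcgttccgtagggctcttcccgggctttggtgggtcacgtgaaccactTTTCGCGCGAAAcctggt
MCM3: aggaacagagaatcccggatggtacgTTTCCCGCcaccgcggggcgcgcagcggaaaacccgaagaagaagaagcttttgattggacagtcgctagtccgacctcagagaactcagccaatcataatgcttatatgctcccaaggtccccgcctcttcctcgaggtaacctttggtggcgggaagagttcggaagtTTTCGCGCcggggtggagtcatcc
POLA1 and GINS2 each carry 1 word, which begins 137 and 31 bases before the start site and is read on the opposite strand. In MCM2 a pair of words overlaps on opposite strands from base 2 after the start site, and MCM3 holds words that begin 174 and 4 bases before it. RPA1 and CDC45, the called members with the smallest p, have CCAAT and no E2F word in the window.

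Origin recognition came first in the order of the process. ORC1 to ORC6 are the subunits of the complex that marks origins, and 2 of 6 fell, ORC4 and ORC5. Among all tested genes 5.76% were called lower, and from 50 to 200 CPM, where these 6 lay, 10.6%. No role was tested as a set, and counts within roles of 2 to 8 genes, here and below, are description only. ORC5 (chromosome 7, 104126341 to 104208047) had 48.5 and 49.9 CPM with ascorbic acid and 55.5, 56.0 and 58.4 CPM in controls. The groups did not overlap, and the log2 fold change was -0.20 ± 0.06 (SE, edgeR adjusted p = 0.0156). ORC4 had -0.16 ± 0.05 (edgeR adjusted p = 0.0426). The other 4 subunits had log2 fold changes from -0.12 for ORC6 to -0.06 for ORC2 and did not pass. In all 6 the treated libraries were below every control, as they were in 20.4% of tested genes. In ORC3 the gap was only that between 54.6 CPM in ascorbic acid 2 and 54.7 CPM in control 2. The ORC5 call ended without ascorbic acid 1 (-0.18, edgeR adjusted p = 0.0843). The ORC4 call ended without ascorbic acid 2, control 1 or control 2 (-0.15 to -0.11, at adjusted p values of 0.138 to 0.257). Per kilobase of the longest transcript the complex spanned 10.4 CPM for ORC4 to 40.3 CPM for ORC6 with ascorbic acid, and 11.7 to 43.9 CPM in controls. For ORC4 that transcript has 6710 bases and may not be the one expressed.

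Of the licensing genes, CDC6 fell while CDT1 and GMNN did not pass. CDC6, the ATPase that helps load the helicase, had 175.8 and 167.1 CPM with ascorbic acid and 198.3, 193.3 and 181.6 CPM in controls (-0.16 ± 0.05, edgeR adjusted p = 0.0277). CDT1, its partner in loading, had 106.1 and 98.9 CPM with ascorbic acid and 90.2, 95.2 and 103.2 CPM in controls, so the groups overlapped (0.09 ± 0.06, edgeR adjusted p = 0.270). GMNN encodes geminin, which holds CDT1 inactive after S phase begins, and had 0.03 ± 0.05 on the log2 scale. Values of the licensing genes thus lay on both sides of 0. The CDC6 call ended without ascorbic acid 2, control 1 or control 2 (-0.15 to -0.12, at adjusted p values of 0.103 to 0.157).

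The MCM helicase core is a ring of 6 related ATPases, and 3 of its genes fell, MCM2, MCM3 and MCM7. All 6 lay at 200 CPM or more, where 20.5% of all tested genes were called lower. MCM2 (chromosome 3, 127598223 to 127622436) had 382.9 and 352.5 CPM with ascorbic acid and 414.8, 408.6 and 434.4 CPM in controls (-0.19 ± 0.05, edgeR adjusted p = 0.00621). MCM3 had 422.8 and 404.5 CPM with ascorbic acid and 464.9, 447.5 and 460.9 CPM in controls (-0.15 ± 0.04, edgeR adjusted p = 0.0244). In both genes ascorbic acid 2 was the lowest library, and the groups did not overlap. MCM7 had -0.14 ± 0.04 (edgeR adjusted p = 0.0386). MCM4 (-0.12 ± 0.04, edgeR adjusted p = 0.0546) and MCM6 (-0.07) did not pass. MCM5 had 235.6 and 223.1 CPM with ascorbic acid and 229.4, 227.1 and 247.6 CPM in controls, overlapping groups, with -0.03 ± 0.05. The ring is built of equal numbers of each subunit. Per kilobase of the longest transcript, values ranged from 49.9 CPM for MCM5 to 185.9 for MCM7 with ascorbic acid and from 51 to 204.2 in controls. The longest annotated transcript, 4599 bases for MCM5 and 3084 for MCM7, may not be the one expressed, so these values do not show unequal subunits. The MCM2 call ended without ascorbic acid 2 (-0.14, edgeR adjusted p = 0.0804). The MCM3 and MCM7 calls ended without ascorbic acid 2 or any 1 control (-0.16 to -0.12 for MCM3, -0.14 to -0.09 for MCM7, with adjusted p values of 0.0551 to 0.243), and with cyclic loess the values were -0.08 and -0.06. MCM4 passed with DESeq2 (-0.13, adjusted p = 0.0118) and limma-voom (-0.12, adjusted p = 0.0385). An antisense gene on the opposite strand covers 22.7% of MCM2 exon bases, and without a stated strand setting its reads cannot be told from those of MCM2.

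CDC45 and the GINS complex join the MCM ring to form the active helicase, and here CDC45, GINS2 and GINS4 fell. CDC45 (chromosome 22, 19479459 to 19520612) had 100.1 and 101.9 CPM with ascorbic acid and 117.1, 118.5 and 119.3 CPM in controls, means of 101 ± 1.24 and 118.3 ± 1.15 CPM (SD, n = 2 and 3). The gap was larger than the spread within either group (-0.23 ± 0.05 on the log2 scale, edgeR adjusted p = 0.00165). GINS2 (chromosome 16, 85676198 to 85690073) had 114.4 and 106.1 CPM with ascorbic acid and 129.5, 129.5 and 125.6 CPM in controls (-0.22 ± 0.05, edgeR adjusted p = 0.00326). GINS4 had 85.3 and 79.8 CPM with ascorbic acid and 96.1, 92.4 and 95.1 CPM in controls (-0.20 ± 0.05, edgeR adjusted p = 0.0103). The 2 remaining GINS subunits, which bind the same complex, had overlapping groups and did not pass, GINS1 with -0.04 ± 0.05 and GINS3 with 0.04 ± 0.06. MCM10, a firing factor that binds the ring, had -0.12 ± 0.05 (edgeR adjusted p = 0.0830). The GINS4 call ended without ascorbic acid 2 (-0.16, edgeR adjusted p = 0.0829) or control 1 (-0.18, edgeR adjusted p = 0.0656), and antisense genes cover up to 21.2% of its exon bases.

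CDC7 had the highest log2 fold change of the 47 members and was singled out after its values were seen. It encodes the kinase that, with its activator DBF4, phosphorylates the MCM ring to start replication. CDC7 had 172.5 and 197.1 CPM with ascorbic acid and 161.6, 173.4 and 164.8 CPM in controls. Ascorbic acid 2 was above every control and ascorbic acid 1 lay among them, with 0.15 ± 0.05 (edgeR adjusted p = 0.0501). It passed without ascorbic acid 1 (0.24, edgeR adjusted p = 0.00277) or control 2 (0.18, edgeR adjusted p = 0.0325), and in 9 of 19 alternatives in all, where the log2 fold change ranged over all 19 from 0.04 to 0.24. DBF4 had 65.2 and 74.0 CPM with ascorbic acid and 75.3, 76.4 and 74.2 CPM in controls, and did not pass (-0.11 ± 0.06, edgeR adjusted p = 0.182). DBF4 was called lower without ascorbic acid 2 (-0.21, edgeR adjusted p = 0.0221). The treated libraries thus differed from each other in both genes of this kinase.

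Among the proteins that coat single-stranded DNA, RPA1 and RPA2 fell. RPA1 (chromosome 17, 1829702 to 1900082) encodes the large subunit of the RPA trimer and had the smallest p of the 47. It had 234.6 and 239.4 CPM with ascorbic acid and 286.9, 280.3 and 283.9 CPM in controls, means of 237 ± 3.41 and 283.7 ± 3.28 CPM (SD, n = 2 and 3). RPA1 was 16.5% lower by the fitted fold change (-0.26 ± 0.04 on the log2 scale, edgeR adjusted p = 0.000137). It stayed between -0.28 and -0.20 over the 19 alternatives. RPA2, the middle subunit, had -0.14 ± 0.05 (edgeR adjusted p = 0.0475), and RPA3, the small subunit, had -0.11 ± 0.06 and did not pass. The RPA2 call ended without ascorbic acid 2 or any 1 control (-0.17 to -0.12, with adjusted p values of 0.0582 to 0.169).

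**Figure D4:**
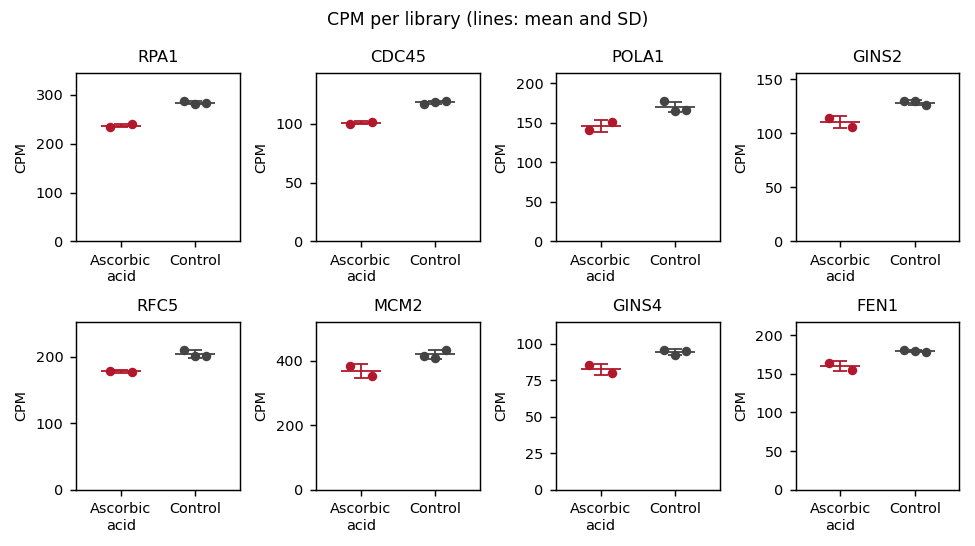
CPM (vertical axes, from 0) in the 2 ascorbic acid libraries and the 3 controls for the 8 called replication genes with the smallest p, with lines for the mean and SD of each group. In each gene both treated points lie below all 3 control points, by 16.5% in the fitted value for RPA1 and by 11.2% for FEN1.

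PCNA is the sliding clamp that holds polymerases on DNA, and the RFC pentamer opens and loads it; PCNA and RFC5 fell. RFC5 (chromosome 12, 118013588 to 118033130) had 179.4 and 176.8 CPM with ascorbic acid and 211.0, 201.3 and 201.0 CPM in controls. The groups did not overlap, and the log2 fold change was -0.20 ± 0.05 (edgeR adjusted p = 0.00354). PCNA, the most abundant member per kilobase of the longest transcript (218.3 CPM with ascorbic acid, 242.4 in controls), had -0.15 ± 0.05 (edgeR adjusted p = 0.0316). That call rested on control 1, the highest library at 352.9 CPM, and was -0.09 without it (edgeR adjusted p = 0.230); it also ended without either treated library (-0.16 to -0.15, with adjusted p values of 0.0640 to 0.0796). RFC1 to RFC4 had log2 fold changes from -0.14 for RFC2 to -0.03 for RFC1 and did not pass. RFC2 was called without ascorbic acid 1 (-0.20, edgeR adjusted p = 0.0193), and RFC3 without ascorbic acid 2 (-0.17, edgeR adjusted p = 0.0392).

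Polymerase alpha and primase lay down the RNA and DNA primer of each new strand, and of their 4 genes POLA1 fell. Among all tested genes 5.76% were called lower, and from 50 to 200 CPM 10.6%. POLA1 (chromosome X, 24693919 to 24996986), the catalytic subunit, had 140.9 and 151.5 CPM with ascorbic acid and 177.2, 165.4 and 166.3 CPM in controls (-0.22 ± 0.05, edgeR adjusted p = 0.00325). Ascorbic acid 1 was the lowest library, and without it the call ended (-0.17, edgeR adjusted p = 0.0509). POLA2, the accessory subunit, had -0.05 ± 0.05, and shares 35.1% of its exon bases with another gene on its strand. PRIM1, the primase catalytic subunit, had -0.14 ± 0.06 (edgeR adjusted p = 0.102), and shares 14.9% of its exon bases with another gene on its strand. PRIM2, the primase subunit that holds an iron-sulfur cluster, had 47.1 and 43.7 CPM with ascorbic acid and 53.1, 50.3 and 46.8 CPM in controls (-0.14 ± 0.06, edgeR adjusted p = 0.127). PRIM2 passed without control 3 (-0.19, edgeR adjusted p = 0.0462).

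The leading and lagging strand polymerases did not pass in any of their 5 genes. Polymerase epsilon copies mainly the leading strand and polymerase delta the lagging strand, and the catalytic subunits of both carry iron-sulfur clusters. At an unadjusted p under 0.05 the count was also 0, as it was with DESeq2 and limma-voom. Among all tested genes 14.3% were called, and at an unadjusted p under 0.05 12.7% were lower and 15.3% higher. With 5 genes, a count of 0 is therefore not a result about the polymerases. POLD1, the delta catalytic subunit, had 100.8 and 94.1 CPM with ascorbic acid and 87.9, 92.6 and 100.6 CPM in controls (0.06 ± 0.06, and -0.03 with GC and length trends removed). POLE, the epsilon catalytic subunit, had 209.4 and 208.9 CPM with ascorbic acid and 206.7, 217.5 and 219.9 CPM in controls (-0.04 ± 0.05). In both genes the groups overlapped. POLE2, the lowest member by CPM, had 30.5 and 29.7 CPM with ascorbic acid and 31.6, 32.3 and 31.3 CPM in controls, a small gap (-0.08 ± 0.07, edgeR adjusted p = 0.492). POLD2 and POLD3, accessory subunits, had -0.03 and -0.05. The median over the 5 genes was -0.04, beside -0.12 over all 47 members and -0.04 over all tested genes from 50 to 200 CPM. Whether the polymerases differ from the helicase genes was not tested.

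FEN1 trims the flap at the end of each lagging-strand fragment, LIG1 seals the nick, and of these FEN1 fell. FEN1 (chromosome 11, 61792637 to 61797244) had 164.4 and 155.5 CPM with ascorbic acid and 181.5, 179.8 and 178.8 CPM in controls (-0.17 ± 0.05, edgeR adjusted p = 0.0122). The groups did not overlap, with controls within a narrow band. LIG1 had 90.6 and 86.1 CPM with ascorbic acid and 84.0, 92.0 and 101.1 CPM in controls, where the controls were spread more widely than the groups were apart (-0.06 ± 0.06). The FEN1 call ended without ascorbic acid 2, control 1 or control 2 (-0.17 to -0.14, with adjusted p values of 0.0510 to 0.0839).

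Nucleotide supply genes make the building blocks, and 1 of 4, TK1, fell. Among all tested genes 5.76% were called lower, with 10.6% from 50 to 200 CPM and 20.5% at 200 CPM or more. In 4 genes, 1 call cannot be told apart from those shares. TK1, the cytosolic thymidine kinase of S phase cells, had 78.0 and 72.4 CPM with ascorbic acid and 81.8, 84.4 and 90.7 CPM in controls (-0.19 ± 0.06, edgeR adjusted p = 0.0233). The call ended without ascorbic acid 2 (-0.14, edgeR adjusted p = 0.158) or control 3 (-0.14, edgeR adjusted p = 0.0985). RRM2, the ribonucleotide reductase subunit with a di-iron centre, shares 20.2% of its exon bases with another gene on its strand. RRM2 had 366.8 and 324.2 CPM with ascorbic acid and 385.2, 366.1 and 351.7 CPM in controls. Its groups overlapped (-0.09 ± 0.05, edgeR adjusted p = 0.246), and it was called lower without ascorbic acid 1 (-0.18, edgeR adjusted p = 0.0243). RRM1, the large subunit, had -0.12 ± 0.04 (edgeR adjusted p = 0.0727), and passed with DESeq2 (-0.12, adjusted p = 0.0238). TYMS, which makes thymidylate, had -0.15 ± 0.06 (edgeR adjusted p = 0.0923), passed without ascorbic acid 1 (-0.22, edgeR adjusted p = 0.0414), and shares 39.1% of its exon bases with ENOSF1 on the opposite strand. Of 5 iron-bearing replication proteins, POLD1, POLE, PRIM2, RRM2 and the nuclease-helicase DNA2 (-0.05), 0 passed in edgeR, DESeq2 or limma-voom, with 1 lower at an unadjusted p under 0.05, where 12.7% of all tested genes were.

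Partners of these genes outside the 47 were counted in the same fit. Their lists were made by function with earlier results of these data known, so the counts are not independent support. Beside them, 5.76% of all tested genes were called lower and 8.53% higher, and from 50 to 200 CPM 10.6% were lower. Of 14 initiation and firing partners 4 fell (28.6%) and 0 rose, with a median of -0.12. They were CDC25A, the phosphatase that activates the S phase kinase (-0.17), DONSON (-0.17) and TICRR (-0.15), which help assemble the active helicase, and CDK2, that kinase itself (-0.15), which was named after its value was seen. Of 21 tested fork and Okazaki fragment partners 1 fell (4.76%), the topoisomerase gene TOP2B (-0.14), a share near that of all tested genes. The median was -0.04, as over all tested genes from 50 to 200 CPM. CHTF8 had 0 counts and was not tested. Of 15 genes of replication-coupled chromatin assembly 5 fell (33.3%) and 0 rose, with a median of -0.06. SSRP1, a subunit of the histone chaperone FACT, had 737.1 and 694.0 CPM with ascorbic acid and 856.7, 841.3 and 836.4 CPM in controls (-0.24 ± 0.04, edgeR adjusted p = 0.000417). The histone chaperone genes ASF1A (-0.22) and ASF1B (-0.20) followed, with NASP (-0.13) and HELLS (-0.16) named after their values were seen. The SSRP1 call held without each library in turn; the other calls of these lists each ended without at least 1 library, always including control 1 (-0.19 to -0.12, with adjusted p values of 0.0690 to 0.194). Without ascorbic acid 1 those of DONSON, TICRR, CDK2, TOP2B, ASF1A, NASP and HELLS ended (-0.17 to -0.06), and without ascorbic acid 2 those of TICRR (-0.14) and ASF1B (-0.15). Without control 2 those of TICRR, TOP2B, NASP and HELLS ended (-0.14 to -0.12), and without control 3 those of TOP2B (-0.15) and NASP (-0.14). Library totals and cyclic loess each ended the calls of CDC25A, DONSON, TICRR, CDK2, TOP2B, NASP and HELLS, and cyclic loess also that of ASF1B. Upper-quartile factors and the 5 CPM filter each ended those of DONSON, TICRR, CDK2, TOP2B, NASP and HELLS. The TOP2B call also ended without the robust prior, and the CDK2 call with the replicate number as a block. Against a minimum fold of 1.2 all these calls ended, SSRP1 included.

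Of 16 other nucleotide supply genes 2 fell (12.5%), among them NME1 (-0.19). In turn 1 rose (6.25%), the mitochondrial thymidine kinase gene TK2 (0.36), whose cytosolic counterpart TK1 fell. Over all tested genes 5.76% were lower and 8.53% higher. TK2 had 13.6 and 13.2 CPM with ascorbic acid and 9.95, 11.3 and 10.1 CPM in controls (edgeR adjusted p = 0.00926). Without control 1 the calls of NME1 and TK2 ended (-0.17 and 0.33). That of TK2 also ended without ascorbic acid 1 (0.34), and that of NME1 without ascorbic acid 2 (-0.13) or control 2 (-0.18). Library totals and cyclic loess each ended the NME1 call. Among 18 E2F, DP and pocket protein genes 0 passed in edgeR, DESeq2 or limma-voom, and 3 were lower at an unadjusted p under 0.05, where 12.7% of all tested genes were. E2F1 had 62.5 and 62.5 CPM with ascorbic acid and 62.5, 63.7 and 68.9 CPM in controls (-0.06 ± 0.06), and the list median was -0.05. Of 20 mitosis genes 6 fell (30%) and 0 rose, with a median of -0.11. From 50 to 200 CPM 10.6% of all tested genes were lower, and at 200 CPM or more 20.5%. The proliferation marker MKI67 had 388.2 and 400.3 CPM with ascorbic acid and 429.3, 460.2 and 451.5 CPM in controls, a decrease (-0.18) that was not called without control 2 (-0.16, edgeR adjusted p = 0.0612) or with cyclic loess (-0.11). CDC20, an activator of the anaphase-promoting complex, had -0.18 and was not called without ascorbic acid 2 (-0.12) or control 1 (-0.16), or with cyclic loess. The mitotic kinase gene AURKA had -0.17 and was not called without ascorbic acid 2 (-0.14), control 1 (-0.16) or control 2 (-0.17), or with library totals or cyclic loess. Against a minimum fold of 1.2 the calls of NME1, TK2, MKI67, CDC20 and AURKA all ended.

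**Figure D5:**
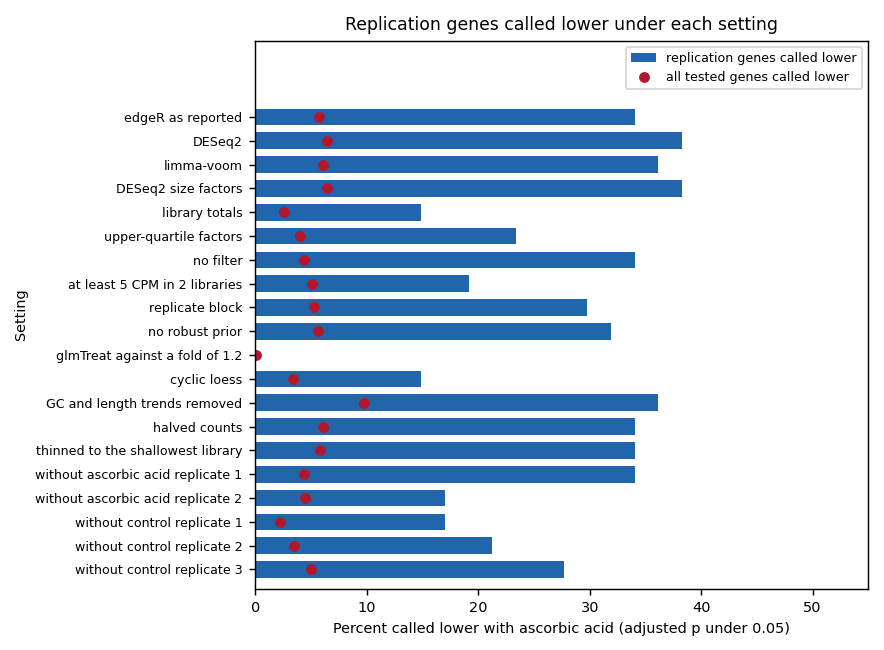
Percent of the 47 replication genes called lower with ascorbic acid (bars) and of all tested genes called lower (points) under the reported edgeR fit and 19 other settings (rows). The bar is at 16 of 47 in the reported fit, shortest with a minimum fold of 1.2, where no member is called, and longer than its point in every other row.

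The 47 genes lie on 19 chromosomes and the 16 called ones on 13. Their transcripts had a median GC content of 45.8%, beside 48.3% over tested genes with annotation. Called members had a median of 48.2% and the others 43.7%, over similar ranges (37.7 to 62.8% and 39.1 to 65%). With GC and length trends removed, 17 members were lower and 1, CDC7, was higher, beside 9.72% of all tested genes lower.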

How the data were processed

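Counts of reads per gene were deposited as 1 table of 28278 symbols by 5 libraries. Per the submitters' processing notes, the authors used Trimmomatic 0.39, STAR, featureCounts and DESeq2 with hg38 (GRCh38); which annotation and strand setting they used, and how shared reads were handled, is not given in the sources used here. Columns were matched to samples by name ("vc" as vitamin C, "con" as control). Every row named a gene.

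Genes were filtered with filterByExpr and scaled by TMM (factors 1.01 and 1.03 with ascorbic acid, 0.984 to 0.994 in controls), then tested with edgeR 4.0.16 under R 4.3.3 (quasi-likelihood, robust glmQLFit, two-sided glmQLFTest without covariates), with Benjamini-Hochberg adjustment over 15271 genes and a threshold of 0.05. CPM use TMM-scaled totals. A standard error is the log2 fold change over the root of F. Replicates differed by more than counting noise (chi-square per degree of freedom 3.89 to 7.22). Positions, longest transcripts, GC and exon overlaps come from GENCODE 29 on GRCh38, which matched 25560 symbols.

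The members and lists were chosen with earlier results of these data known, so no list was tested and the members' counts are not independent support. Named genes are the 16 called members (values per library for the 12 with the smallest p), the largest change in each role, iron-bearing members and up to 3 called genes a list. The result of 1 listed gene is not reported here. Alternatives were DESeq2 1.42.0, limma 3.58.1 (voom, cyclic loess), other scalings and filters, a replicate block, a minimum fold of 1.2, mgcv 1.9.3 GC and length correction, halved and thinned counts, and each library left out, where a lone treated library is assumed to vary like the controls.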

Additional observations from a re-analysis of the deposited data

How the results depend on the processing

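Of 893 recomputed values of single members, 766 kept direction and side of the threshold, 84 lost a call, 25 gained one and 18 changed sign. No call changed sign. The 16 members called lower became 7 with library totals, 9 with a filter of 5 CPM in 2 libraries, 7 with cyclic loess and 0 against a fold of 1.2, and 8 to 16 with a library left out. The 0 members called higher became 1 (CDC7) with library totals, upper-quartile factors, no filter, the 5 CPM filter, cyclic loess, GC and length trends removed and halved counts, and 0 to 1 with a library left out. All tested genes called lower were 879, and 389, 542, 511, 11 and 1484 with library totals, the 5 CPM filter, cyclic loess, the fold of 1.2 and GC and length trends removed, and 335 to 768 with a library left out. Those called higher were 1303, and 804 with DESeq2, 275 against a fold of 1.2 and 790 to 1279 with a library left out. With DESeq2 7 initiation and firing partners were lower in place of 4, and 2 fork and Okazaki partners in place of 1, as with limma-voom for the fork list. The causes were not tested. With the replicate number as a block 14 members were lower, 12 of them among the 16; the numbers were not shown to pair libraries (deviations of same-numbered libraries correlated at 0.0257 and 0.00742).

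Sign changes were in uncalled members near 0. They were 0.01 for MCM5, RFC1, POLD2 and POLE and 0.00 for GINS1 with library totals; 0.02 for MCM5, POLD2 and POLE, 0.01 for GINS1 and RFC1 and 0.00 for MCM6 with cyclic loess; 0.01 for MCM5 and LIG1 with the block and without control 3; 0.01 for GINS1 without ascorbic acid 2, 0.05 for RFC1 without ascorbic acid 1, and -0.03 for POLD1 with GC and length trends removed. With a library left out, MCM5 ran from -0.07 to 0.01, GINS1 from -0.09 to 0.01, RFC1 from -0.12 to 0.05 and LIG1 from -0.12 to 0.01. With 2 treated libraries, differences this small are near the limit of detection, and an uncalled gene is not shown to be unchanged.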
